A study of Mus musculus with 32 samples.

Results

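The genes described here are 8 enzymes of purine salvage and uric acid metabolism, Ada, Pnp, Gda, Xdh, Uox, Hprt, Aprt and Adk, in livers of Gclc WT and Gclc KO mice. They were chosen by name, with earlier results of these data known, as the rows of the expression table that carry these symbols. All 8 were found among 20821 symbols. Purine nucleotides are broken down to nucleosides and then to the free bases hypoxanthine, guanine and xanthine, and from there the bases go to either of 2 fates. Xanthine oxidoreductase, which exists as a dehydrogenase and an oxidase, turns hypoxanthine and xanthine into uric acid, and its oxidase form passes electrons to oxygen and so makes superoxide and hydrogen peroxide. Phosphoribosyltransferases instead return the bases to nucleotides. The liver is a main site of both routes. Mice, unlike humans, keep a working urate oxidase, which removes uric acid in liver peroxisomes and releases hydrogen peroxide.

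RNA-seq compared 4 Gclc WT with 4 Gclc KO mice. Gclc encodes the catalytic subunit of glutamate-cysteine ligase, the enzyme that starts glutathione (GSH) synthesis, and the question asked here is how the mRNA of purine enzymes differed once that enzyme was lost. Gclc WT mice were Gclc f/f, with loxP-flanked Gclc and no recombinase. Gclc KO mice were Gclc f/f Rosa26-CreERT2, in which a tamoxifen-dependent Cre is made from the Rosa26 locus throughout the body, so deletion was not limited to hepatocytes. Both genotypes received tamoxifen (i.p., 150 mg/kg on 5 days) and livers were taken after 14 days, in adult animals. The study's methods state a dose slightly above that of the labels. No group carried CreERT2 with intact Gclc, so the recombinase and the loss of Gclc cannot be told apart. Sex is absent from the labels. Each mouse was measured in 4 libraries, which were averaged, and values are TPM (transcript abundance scaled for transcript length and to a fixed total per library), so levels of different genes can be set side by side. Sequencing depth cannot be read from TPM and is unknown, so precision rests on the spread among mice (SD, n = 4 per genotype). Gclc itself was 82.3, 114.1, 77.8 and 138 TPM in Gclc WT mice 1 to 4, against 26.9, 16.1, 18.6 and 26.8 TPM in Gclc KO mice 1 to 4, which fits the labels.

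Pnp and Aprt mRNA rose in Gclc KO livers, by 3.21-fold and 2.18-fold, and for both genes every Gclc KO mouse lay above every Gclc WT mouse. Pnp releases free bases from nucleosides, and Aprt returns adenine to AMP. Uox mRNA, which encodes urate oxidase, averaged 2036 TPM in Gclc WT mice, against 1222 TPM in Gclc KO mice, but did not pass the test. Xdh, which encodes xanthine oxidoreductase, was 67.2 and 61.5 TPM, and Ada, Gda, Hprt and Adk did not pass the test either. All 8 members passed the filter, a mean across mice of 1 TPM or more. With limma on log2(TPM + 1) and Benjamini-Hochberg adjustment over 11284 genes, 2 of 8 were higher, 0 were lower and 6 were not called at an adjusted p of 0.05. Of all genes tested, 12.8% were called higher and 8.61% lower. The genotypes did not overlap for 2 members, both with Gclc KO above Gclc WT, and for 0 members with Gclc KO below, against 14.5% and 10.2% of all genes tested. The median log2 fold change was 0.18 over the members and 0.09 over all genes tested. The calls over all genes were 1439 higher and 972 lower, which became 1236 and 1364 with median of ratios and 1228 and 1366 after trimmed mean of M values (TMM) scaling, while Pnp and Aprt were called higher with each scaling. In whole liver, fewer cells of a type and less RNA per cell cannot be told apart for any of these genes.

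**Figure D1:**
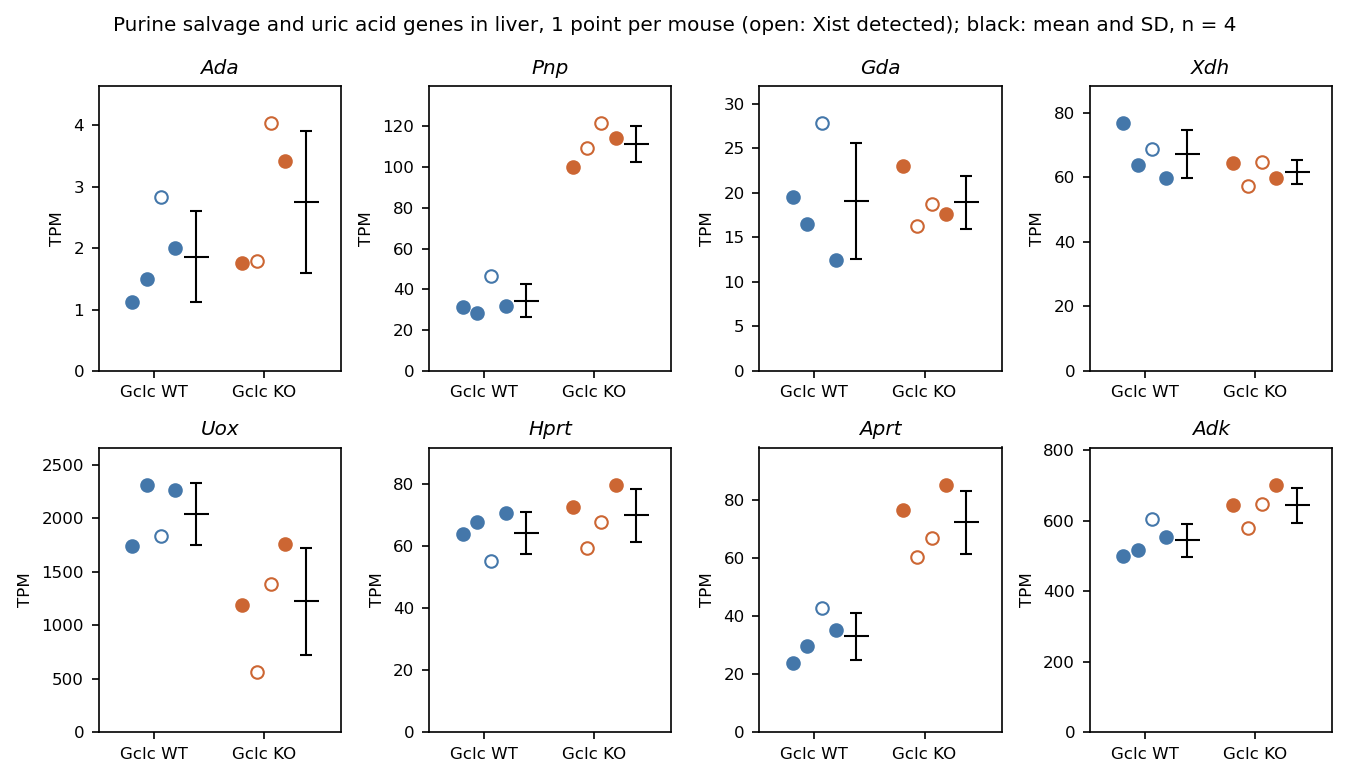
TPM of the 8 genes in each mouse (vertical axes, linear and from 0, each with its own scale), by genotype, with black marks for the mean and SD of 4 mice. Open points are the 3 mice with Xist. Pnp and Aprt separate the genotypes, Uox overlaps through Gclc KO 4 (1757 TPM) and Gclc WT 1 (1743 TPM), and the other 5 genes overlap.

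Some animals stood apart in ways that bear on these values. Xist, the RNA of the inactive X chromosome, was 25.7 TPM in Gclc WT 3, 30.2 TPM in Gclc KO 2 and 22.8 TPM in Gclc KO 3, and at most 0.0225 TPM in the other 5 mice, while the Y-linked gene Ddx3y was 0 in those 3 mice and 22.6 TPM or more in the rest. Hepatocyte markers were abundant in all mice (6 markers, summed 64378 to 90559 TPM in Gclc WT mice against 81456 to 139242 TPM in Gclc KO mice). Most of that sum was Alb, which averaged 56699 and 85769 TPM and was not called. Of the 6, Fgb was called higher and Cps1 lower. The 7 Kupffer cell markers summed to 183 to 522 TPM in Gclc WT mice against 560 to 1002 TPM in Gclc KO mice. Of the 7, 3 were called higher and 0 lower. These sums did not overlap, but they do overlap without Marco, which averaged 16.1 and 191 TPM. Clec4f, Vsig4, Timd4, Cd5l and Adgre1 each overlapped between the genotypes, and of these only Vsig4 was called. C1qa averaged 72.7 TPM in Gclc WT mice and 139 TPM in Gclc KO mice (limma adjusted p = 0.0302). Like Marco, it did not overlap and was called higher. The median log2 fold change of the 7 markers was 0.90, against 0.09 over all genes tested. The 4 erythroid markers summed to 880 to 3092 TPM in Gclc WT mice against 289 to 1085 TPM in Gclc KO mice. Most of this was Hba-a1, at 2097 and 664 TPM on average, and of 3 markers tested 2 were called lower and 0 higher. Gclc WT 3 held 235 TPM of 4 neutrophil markers against 2.98 to 19.6 TPM in the other mice, and Gclc WT 1 held 250.1 TPM of 6 exocrine pancreas markers against 0.303 to 11.95 TPM. The part of these cell types in the results on Pnp and Aprt was not tested. The 4 libraries of a mouse belong to 2 batches by the labels, and every mouse was in both.

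The breakdown of nucleosides to bases runs through Ada, Pnp and Gda. Ada encodes adenosine deaminase, which turns adenosine into inosine. Ada mRNA (Entrez 11486) was the lowest of the 8, at 1.118, 1.498, 2.84 and 2.01 TPM in Gclc WT mice 1 to 4, against 1.77, 1.80, 4.04 and 3.43 TPM in Gclc KO mice 1 to 4. The highest mouse of each genotype was number 3, and the genotypes overlapped. The log2 fold change was 0.38 (SE 0.26, 95% interval −0.20 to 0.95, limma adjusted p = 0.323). Libraries of the same mouse differed for Ada about as much as mice did, with a median SD of 0.38 on the log2 scale within a mouse and 0.37 and 0.45 among Gclc WT and Gclc KO mice, and single libraries ran from 0 to 6.71 TPM.

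Pnp encodes purine nucleoside phosphorylase, which cleaves inosine and guanosine to hypoxanthine and guanine. It lies upstream of xanthine oxidoreductase and, among the salvage members, of Hprt, while Aprt and Adk act on adenine and adenosine. Pnp mRNA (Entrez 18950) was 31.5, 28.5, 46.5 and 31.7 TPM in Gclc WT mice 1 to 4. In Gclc KO mice 1 to 4 it was 100.2, 109.4, 121.6 and 114.5 TPM. The lowest Gclc KO mouse was thus above the highest Gclc WT mouse, Gclc WT 3, and the Gclc KO mice were the closer together of the 2 groups on the log2 scale (SD 0.12 against 0.30). The means were 34.5 ± 8.11 and 111.4 ± 9.004 TPM (SD, n = 4 each), with a log2 fold change of 1.68 (SE 0.15, 95% interval 1.34 to 2.03, limma adjusted p = 0.000338). The value was 1.68 in batch 1 libraries and 1.69 in batch 2 libraries. With each mouse left out in turn it ran from 1.60 (without Gclc WT 2) to 1.83 (without Gclc WT 3), with 1.65 without Gclc WT 1 and 1.64 without Gclc KO 3, and in the 5 mice without Xist it was 1.78.

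Pnp has a near copy next to it on mouse chromosome 14, Pnp2, and the coding sequences are identical at 851 of 867 aligned bases (98.2%), so the division of reads between them is uncertain. Pnp2 (Entrez 667034) was 2.89, 2.77, 2.47 and 2.51 TPM in Gclc WT mice 1 to 4, against 1.06, 0, 5.59 and 8.69 TPM in Gclc KO mice 1 to 4. Single libraries of Gclc KO 4 held 0 to 20.8 TPM, and the libraries within a mouse had a median SD of 1.36 in log2 units, far above the 0.067 of Pnp. The log2 fold change of Pnp2 was −0.11 (SE 0.61, limma adjusted p = 0.913). The TPM of the 2 copies were therefore also summed. As TPM are scaled by length and the coding sequences have 867 and 915 bases, the sum still depends in part on how reads were divided. Its range was 31.2 to 49.0 TPM in Gclc WT mice, against 101 to 127 TPM in Gclc KO mice. With the copies summed the log2 fold change was 1.62 (SE 0.15, limma adjusted p = 0.000392).

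The promoter of Pnp is shown because Pnp had the largest difference among the members. It is the 250 bases before the annotated start on chr14:50944053-50944302 (plus strand, GRCm38.p6, RefSeq), 5′ to 3′, with capitals for the motif matches described here.
Pnp promoter: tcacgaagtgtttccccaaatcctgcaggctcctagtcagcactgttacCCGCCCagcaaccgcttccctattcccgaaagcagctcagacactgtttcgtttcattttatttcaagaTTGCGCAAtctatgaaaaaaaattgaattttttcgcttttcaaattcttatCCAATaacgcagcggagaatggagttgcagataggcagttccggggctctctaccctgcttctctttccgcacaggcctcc
The capitals mark, from left to right, a GC box on the opposite strand (GGGCGG, starting 201 bases before the start), the palindrome TTGCGCAA (132 bases before), which C/EBP factors are known to bind, and a CCAAT box (81 bases before). These 3 motifs were added to the search after the windows had been seen, none of the matches overlap, and both strands were searched. GC boxes occur in 32.7% of 32851 mouse promoter windows of this length, CCAAT in 33.8% and TTGCGCAA in 0.164%. The Pnp window held none of the other 3 motifs searched, the antioxidant response element core TGACNNNGC (10.2% of windows), the STAT site TTCNNNGAA (7.02%) and the E-box CACGTG (6.02%). A match is a description of letters and not of binding. Of the 8 members 7 had a promoter in the RefSeq table, with 2 windows for Adk, and among these TGACNNNGC occurred only in 1 Adk window, TTCNNNGAA only in Ada and CACGTG in none.

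Gda encodes guanine deaminase, which turns guanine into xanthine. Gda mRNA (Entrez 14544) was 19.6, 16.5, 27.8 and 12.4 TPM in Gclc WT mice 1 to 4, against 23.1, 16.3, 18.7 and 17.6 TPM in Gclc KO mice 1 to 4. All Gclc KO mice lay within the range of the Gclc WT mice. The means were 19.1 ± 6.53 and 18.9 ± 2.93 TPM (SD, n = 4 each) and the log2 fold change was 0.033 (SE 0.22, 95% interval −0.45 to 0.52, limma adjusted p = 0.927), a value whose sign depended on the scaling and on single mice.

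Xdh (Entrez 22436) encodes the enzyme that makes uric acid and stands at the branch between breakdown and salvage. Its mRNA was 76.7, 63.9, 68.6 and 59.62 TPM in Gclc WT mice 1 to 4, against 64.4, 57.2, 64.9 and 59.62 TPM in Gclc KO mice 1 to 4. Both genotypes thus lay within a narrow range, and only Gclc WT 1 and Gclc WT 3 were above all Gclc KO mice. The means were 67.2 ± 7.33 and 61.5 ± 3.73 TPM (SD, n = 4 each), with a log2 fold change of −0.12 and a 95% interval of −0.37 to 0.12 (SE 0.11, limma adjusted p = 0.457). The mRNA level does not show how much of the enzyme is in its oxidase form. The genes whose pattern over the 8 mice was nearest to that of Xdh were U2af1l4, Tm2d1, Idh3a, Spop and Atg14, with a mean absolute difference of 0.050 to 0.069 between log2 values centred on the Gclc WT mean, among 5886 genes averaging 10 TPM or more. None of these 5 genes was called, which follows from choosing genes close to Xdh in the same mice.

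Uox (Entrez 22262) was the most abundant of the 8 mRNAs in both genotypes. In Gclc WT mice 1 to 4 it was 1743, 2313, 1831 and 2259 TPM. In Gclc KO mice 1 to 4 it was 1185, 565, 1382 and 1757 TPM. The genotypes overlapped by a single pair, since Gclc KO 4 was just above Gclc WT 1, and Gclc KO 2 was far below the others. The means were 2036 ± 291 and 1222 ± 498 TPM (SD, n = 4 each), with a log2 fold change of −0.84 (SE 0.31, 95% interval −1.54 to −0.13). The limma adjusted p was 0.0857, and the exact permutation test over the 70 ways of choosing 4 of 8 mice gave a two-sided p of 0.0571, where the smallest possible is 0.0286. The unadjusted interval excludes 0 while the adjusted p misses the threshold, so the difference is reported as not called. Libraries of a mouse agreed closely for Uox (median SD 0.018 on the log2 scale), whereas mice differed (SD 0.21 among Gclc WT and 0.71 among Gclc KO mice).

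The size of the Uox difference rested in part on Gclc KO 2, which also carried Xist. Without this mouse the log2 fold change was −0.51 (limma adjusted p = 0.0979), with Xist as a covariate −0.72 (adjusted p = 0.109), and in the 5 mice without Xist −0.53 (adjusted p = 0.125). It was −0.84 in libraries of either batch. The ratio of Uox to Xdh mRNA was 22.7, 36.2, 26.7 and 37.9 in Gclc WT mice 1 to 4, against 18.4, 9.87, 21.3 and 29.5 in Gclc KO mice 1 to 4. Gclc KO 2 had the lowest ratio and the genotypes overlapped. The 5 genes nearest to Uox in pattern were Lpcat3, Smim4, Ptgr2, Pdk2 and Emc9 (mean absolute difference 0.15 to 0.19 on the centred log2 scale over 8 mice, 5886 candidates). Each of these was itself called lower, with log2 fold changes of −0.86 to −0.57. Their direction follows from choosing genes close to Uox in the same mice and adds nothing to the Uox result.

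The salvage enzymes differed among themselves. Hprt encodes hypoxanthine-guanine phosphoribosyltransferase, which returns hypoxanthine and guanine to IMP and GMP, and the gene is X-linked. Hprt mRNA (Entrez 15452) was 63.8, 67.7, 55.1 and 70.8 TPM in Gclc WT mice 1 to 4, against 72.7, 59.4, 67.7 and 79.8 TPM in Gclc KO mice 1 to 4. The genotypes overlapped, and the 3 mice with Xist were the lowest of their genotype. The log2 fold change was 0.12 (SE 0.13, 95% interval −0.17 to 0.40, limma adjusted p = 0.543).

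Aprt encodes adenine phosphoribosyltransferase, which returns adenine, a by-product of polyamine synthesis, to AMP. Aprt mRNA (Entrez 11821) was 24.0, 29.8, 42.9 and 35.3 TPM in Gclc WT mice 1 to 4. In Gclc KO mice 1 to 4 it was 76.3, 60.2, 67.0 and 85.1 TPM. The lowest Gclc KO mouse, number 2, exceeded the highest Gclc WT mouse, number 3. The means were 33.0 ± 8.05 and 72.2 ± 10.9 TPM (SD, n = 4 each), with a log2 fold change of 1.12 (SE 0.18, 95% interval 0.72 to 1.53, limma adjusted p = 0.00391). It was 1.09 in batch 1 and 1.16 in batch 2 libraries, and 1.43 in the 5 mice without Xist. With each mouse left out in turn it ran from 0.99 (without Gclc WT 1) to 1.26 (without Gclc WT 3).

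The Aprt promoter is shown beside that of Pnp because these were the members called higher. It covers the 250 bases before the annotated start on chr8:122576908-122577157 (minus strand, GRCm38.p6, RefSeq), 5′ to 3′, with capitals for GC boxes.
Aprt promoter: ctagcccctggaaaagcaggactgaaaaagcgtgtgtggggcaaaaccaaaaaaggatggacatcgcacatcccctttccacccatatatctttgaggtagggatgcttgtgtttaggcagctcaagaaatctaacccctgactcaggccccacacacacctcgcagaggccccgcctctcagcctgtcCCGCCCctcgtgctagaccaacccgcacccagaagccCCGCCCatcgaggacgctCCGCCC
The window held 3 GC boxes, all on the opposite strand, starting 61, 24 and 6 bases before the start, and none of the other 5 motifs. Its GC content was 58.4%, against 46.8% for the Pnp window and a median of 52.4% over all windows. The 2 promoters thus had GC boxes alone in common among the motifs searched, which occur in 32.7% of windows, and GC boxes were also present in the windows of Ada, Hprt and Adk, which were not called.

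Adk encodes adenosine kinase, which returns adenosine to AMP and so competes with adenosine deaminase. Adk mRNA (Entrez 11534) was 500.5, 518, 606 and 555 TPM in Gclc WT mice 1 to 4, against 646, 579, 649 and 703 TPM in Gclc KO mice 1 to 4. The genotypes overlapped only in that Gclc WT 3 exceeded Gclc KO 2. The means were 545 ± 46.7 and 644 ± 50.7 TPM (SD, n = 4 each), with a log2 fold change of 0.24 (SE 0.12, 95% interval −0.03 to 0.51, limma adjusted p = 0.185).

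**Figure D2:**
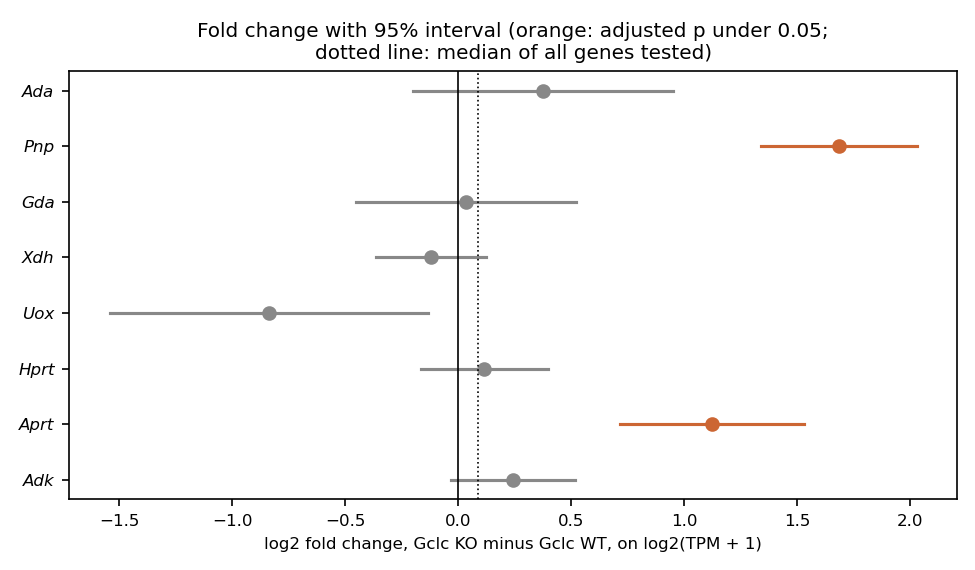
Log2 fold change of each gene on log2(TPM + 1), Gclc KO minus Gclc WT (horizontal axis), with the 95% interval from limma. The intervals of Pnp (1.34 to 2.03) and Aprt (0.72 to 1.53) lie furthest from 0, that of Uox (−1.54 to −0.13) lies below 0 although the gene was not called, and the other 5 include 0. The dotted line is the median of all genes tested, 0.09.

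Ordered by mean TPM, the Gclc WT livers ran Uox, Adk, Xdh, Hprt, Pnp, Aprt, Gda and Ada. Xdh and Hprt overlapped among mice, as did Pnp with Aprt and Aprt with Gda, and the other neighbours in this order did not. In Gclc KO livers the order was Uox, Adk, Pnp, Aprt, Hprt, Xdh, Gda and Ada. There Uox overlapped with Adk, since Gclc KO 2 held 565 TPM of Uox, and Aprt overlapped with Hprt and Hprt with Xdh, while Pnp lay apart from both of its neighbours. Pnp thus moved from below Hprt to above it. The ratio of Pnp to Hprt was 0.494, 0.421, 0.844 and 0.448 in Gclc WT mice 1 to 4, against 1.38, 1.84, 1.79 and 1.43 in Gclc KO mice 1 to 4. The ratio of Aprt to Hprt ran from 0.376 to 0.779 in Gclc WT mice, against 0.989 to 1.07 in Gclc KO mice. Neither ratio overlapped between genotypes, and ratios within a mouse do not depend on the scaling.

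**Figure D3:**
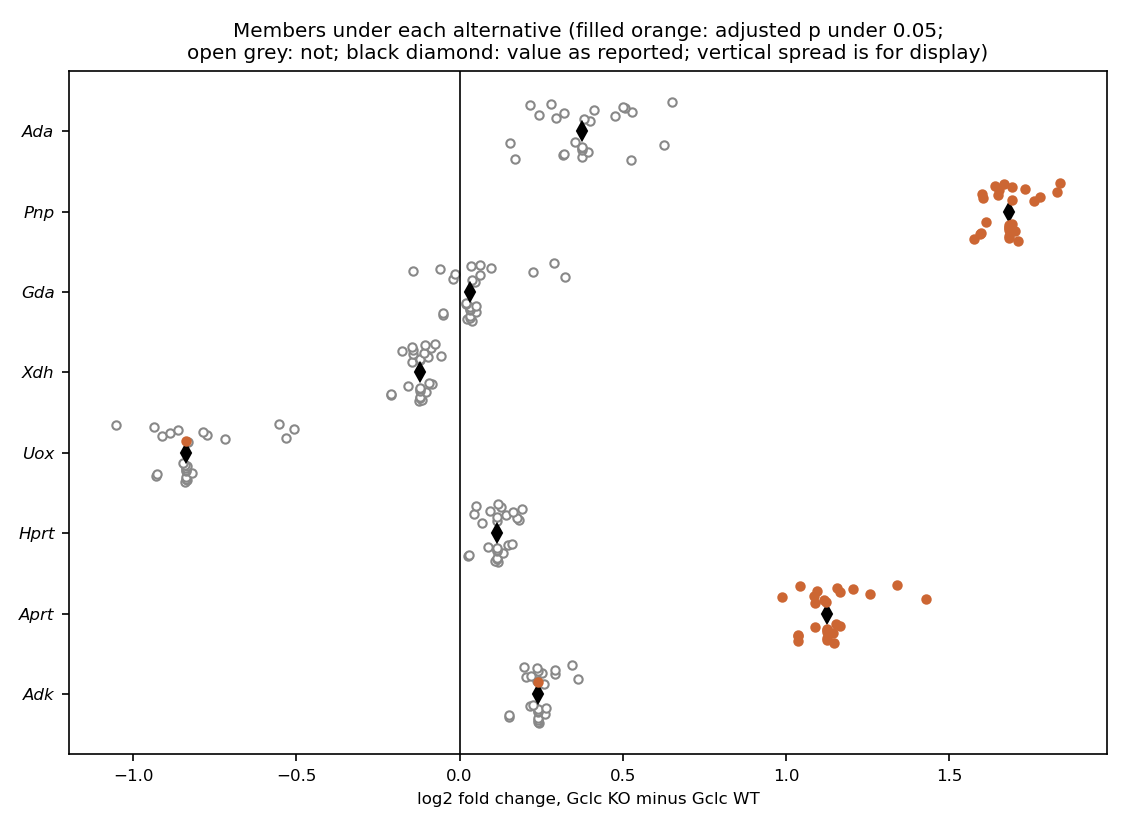
Log2 fold change of each gene, Gclc KO minus Gclc WT (horizontal axis), as reported (black diamonds) and under each alternative processing or with mice left out (circles, orange where the adjusted p was under 0.05). Pnp (1.57 to 1.84) and Aprt (0.99 to 1.43) were called throughout, Uox and Adk under 1 alternative each, and Gda spans 0.

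The steps around these enzymes were described with 8 lists of neighbouring pathways, in which 53 genes were tested, 7 were called higher and 11 lower. These are 13.2% and 20.8% of the genes tested in the lists, against 12.8% and 8.61% of all genes tested, so the share called higher was near that of all genes, and no test was made on the lists. In de novo purine synthesis, which builds IMP from ribose phosphate, 0 of 10 genes were higher and 2 lower, with a median log2 fold change of 0.12 against 0.09 over all genes tested. The 2 were Prps2, which makes the phosphoribosyl pyrophosphate that Hprt and Aprt also consume (9.74 ± 2.52 and 6.22 ± 0.508 TPM, log2 fold change −0.55, adjusted p = 0.0348), and Prpsap2, a protein associated with that synthetase (−0.41, adjusted p = 0.0312). Either call was lost without any of 6 of the 8 mice, with adjusted p-values up to 0.0842 and 0.0876. Prps1, the relative of Prps2, was 29.1 ± 2.53 and 31.9 ± 4.04 TPM (adjusted p = 0.487). In the interconversion of IMP, AMP and GMP 1 of 8 genes was higher and 0 lower (median 0.24), namely Impdh1, an IMP dehydrogenase on the route to GMP, at 1.90 ± 0.598 and 3.90 ± 0.745 TPM (0.77, adjusted p = 0.0171, and 0.0533 without Gclc WT 2). Impdh2, its more abundant relative in these livers, was 42.1 ± 1.87 and 49.0 ± 7.14 TPM and was not called (adjusted p = 0.247). Means are ± SD over 4 mice per genotype, and adjusted p-values are from limma.

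Among 5′-nucleotidases, which release nucleosides from nucleotides, 1 of 6 genes was higher and 0 lower (median 0.21). This was Nt5e (CD73), the cell-surface enzyme that makes adenosine from AMP, at 2.11, 4.22, 22.6 and 4.95 TPM in Gclc WT mice 1 to 4, against 18.4, 42.4, 39.6 and 26.2 TPM in Gclc KO mice 1 to 4. Gclc WT 3 lay above Gclc KO 1, so the genotypes overlapped, and the 3 mice with Xist were the highest of their genotype. The log2 fold change of Nt5e was 2.17 (SE 0.55, limma adjusted p = 0.0224), and the adjusted p was 0.0657 without Gclc WT 2, 0.0590 without Gclc WT 4 and 0.0589 without Gclc KO 3. Of the nucleoside and nucleobase transporters 3 of 8 passed the filter and 0 were called. Slc29a1, the most abundant of them, which encodes the equilibrative transporter ENT1, was 116 ± 37.8 and 82.8 ± 11.9 TPM (limma adjusted p = 0.170, n = 4 each).

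Past urate oxidase, its unstable product is processed to allantoin by the enzymes of Urah and Urad, and these went in opposite directions. Urah, the hydrolase of the first of these steps, was 347, 344, 353 and 367 TPM in Gclc WT mice 1 to 4, against 282, 280.2, 246 and 281 TPM in Gclc KO mice 1 to 4. Each Gclc KO mouse was below each Gclc WT mouse, with a log2 fold change of −0.37 (SE 0.10, limma adjusted p = 0.0311), and leaving out any of 6 mice lost the call (adjusted p up to 0.0840). Urad, the decarboxylase of the last step, was 46.7, 46.3, 56.0 and 41.6 TPM in Gclc WT mice 1 to 4, against 73.7, 90.4, 68.1 and 93.4 TPM in Gclc KO mice 1 to 4. Its log2 fold change was 0.76 (SE 0.14, limma adjusted p = 0.00637), without overlap. Allc, for allantoicase, did not pass the filter.

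Among transporters of urate 1 of 5 genes was higher and 2 were lower (median −0.35). Slc17a1, a phosphate and urate transporter, rose from 6.47 ± 3.71 to 20.7 ± 3.796 TPM (1.64, adjusted p = 0.00484). Slc22a7, the organic anion transporter OAT2, fell from 16.8 ± 4.42 to 3.65 ± 1.68 TPM (−2.004, adjusted p = 0.00346). Slc2a9 (GLUT9), which carries urate into hepatocytes where urate oxidase acts, was 23.6, 28.4, 31.1 and 30.5 TPM in Gclc WT mice 1 to 4, against 23.7, 15.6, 11.0 and 18.2 TPM in Gclc KO mice 1 to 4. Gclc WT 1 and Gclc KO 1 overlapped by a small margin. The log2 fold change of Slc2a9 was −0.74 (SE 0.20, limma adjusted p = 0.0304). It was −0.38 in the 5 mice without Xist (adjusted p = 0.141), and leaving out any of 6 mice moved the adjusted p to between 0.0504 and 0.0785.

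Xanthine oxidoreductase needs a molybdenum cofactor, and the 8 genes of that cofactor and of the other enzymes that carry it divided into 2 higher, 3 lower and 3 not called (median 0.04). Mocos, the sulfurase that completes the cofactor for xanthine oxidoreductase and the aldehyde oxidases, rose from 22.7 ± 2.83 to 45.9 ± 12.02 TPM (0.96, adjusted p = 0.00819). Gphn, gephyrin, which inserts molybdenum, fell from 39.5 ± 1.37 to 23.5 ± 3.88 TPM (−0.74, adjusted p = 0.00516). The aldehyde oxidases, relatives of xanthine oxidoreductase, went opposite ways. Aox1 rose from 21.6 ± 8.25 to 72.0 ± 30.3 TPM (1.66, adjusted p = 0.0104) and Aox3 fell from 184 ± 82.1 to 25.5 ± 10.2 TPM (−2.72, adjusted p = 0.00301). For both genes the 3 mice with Xist were the lowest of their genotype. With Xist as a covariate the log2 fold changes were 1.89 and −2.40, and both genes were still called. Suox, sulfite oxidase, named after its value was seen, was lower (−0.48, adjusted p = 0.0273), with an adjusted p of 0.0803 without Gclc WT 2, and 4 other mice also ended the call when left out. Means are ± SD over 4 mice per genotype, and adjusted p-values are from limma.

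**Figure D4:**
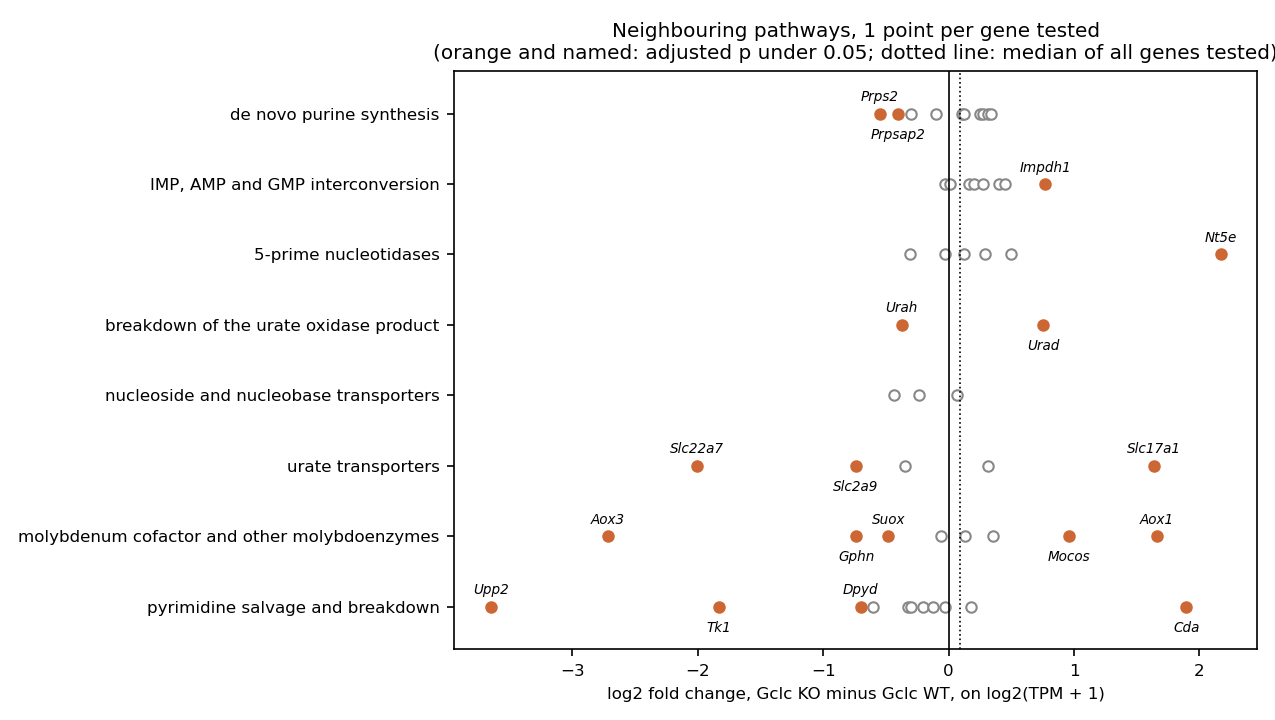
Log2 fold change on log2(TPM + 1), Gclc KO minus Gclc WT (horizontal axis), of each tested gene in 8 neighbouring pathways (rows), with genes at an adjusted p under 0.05 in orange and named. Of 53 genes 7 are called higher and 11 lower, from Upp2 at −3.65 to Nt5e at 2.17. Calls in both directions occur in the lists of molybdoenzymes, urate transporters, urate oxidase product breakdown, and pyrimidine salvage and breakdown.

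Of the 53 genes tested in these lists, 11 of the 18 called genes were called under every alternative tried and 7 lost the call under at least 1. The 7 were Prps2, Prpsap2, Impdh1, Nt5e, Urah, Slc2a9 and Suox.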

How the data were processed

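Liver RNA of 8 mice was sequenced in 32 libraries, from column-purified RNA and a directional mRNA kit per the labels. The authors deposited 1 table of TPM per gene and library. The submitters' processing notes name bcl2fastq 2.2, while no source used here names the aligner, quantifier, genome build or annotation. The table holds 20896 rows, of which 75 repeat a symbol with identical values and were dropped. Library sums were 999315 to 999534. What the batch and run numbers of the labels stand for is not stated, so the 4 libraries of a mouse were averaged as technical repeats. Genes averaging 1 TPM or more were compared on log2(TPM + 1) with limma 3.58.1 (R 4.3.3, mean-variance trend, two-sided, Benjamini-Hochberg over 11284 genes, threshold 0.05). Fold changes on this scale understate low genes. The fit was tested on simulated data, and the outcome is not given here. Promoter windows came from a RefSeq table (GRCm38.p6) and the coding alignment from Biopython 1.88.

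Named were the 8 members, Gclc, Pnp2, up to 4 genes per list with the smallest adjusted p, others where stated or given as a contrast after their values were seen, and the 5 genes nearest to Xdh and Uox. The members and lists were chosen with earlier results of these data known, and 1 further list is not reported here. Alternatives covered the pseudocount, filter, scaling, trend, robust fit, a replicate block, 1 batch or run at a time, a random effect for the mouse, Xist, and each mouse left out. Summing Pnp with Pnp2 and leaving out 2 mice together were added after the data were seen.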

Additional observations from a re-analysis of the deposited data

Results flagged for a closer look

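Values of 76 groups of 4 mice were searched for a mouse far from the other 3, on the log2(TPM + 1) scale. The groups were 38 genes in each genotype, namely the 8 members, Gclc, Pnp2, the 18 called genes of the pathway lists and the 10 genes nearest to Xdh and Uox. Such a mouse was found in 5 of the 76 groups. Chance gives about 1 group in 20, so the number found was close to that rate. None was among the 8 members. Prpsap2 was higher in Gclc WT 4 (3.16 against 2.95 to 2.98) and in Gclc KO 4 (2.81 against 2.52 to 2.56) than in the other mice of the genotype. Urah was lower in Gclc KO 3 (7.95 against 8.14 to 8.15). Slc22a7 was lower in Gclc KO 2 (1.11 against 2.38 to 2.53), a level of 1.16 TPM. Upp2 was lower in Gclc WT 1 (8.87 against 9.70 to 9.82), which at 465 TPM was still above every Gclc KO mouse.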

How the results depend on the processing

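Pnp and Aprt kept their direction and call under all alternatives run, with adjusted p-values of at most 0.00222 and 0.0168. Treating 32 libraries with the mouse as a random effect was the exception for 2 other members, as it called Uox lower (−0.84, adjusted p = 7.85e-05) and Adk higher (0.24, adjusted p = 0.000503), so that members called lower became 1 and members called higher 3. That model used 1 correlation for all genes, 0.499, while libraries of a mouse differed far less than mice for both genes. Gda changed sign with median of ratios (−0.051), with TMM scaling (−0.052) and with Xist as a covariate (−0.022), and ranged from −0.14 to 0.23 with a mouse left out. It was negative without Gclc WT 2, Gclc WT 4 or Gclc KO 1. Leaving out 1 mouse gave 700 to 1855 genes called higher and 556 to 950 called lower, the lowest without Gclc WT 2. Counts moved by over 1.5 times also without Gclc WT 4 (803 higher), Gclc KO 1 (893 higher), Gclc KO 4 (851 higher) and Gclc KO 3 (640 lower). At a mean of at least 10 TPM 967 genes were higher and 765 lower, among fewer genes tested. Mouse numbers were shared by the genotypes, and deviations of same-numbered mice correlated at 0.06, −0.12, 0.34 and 0.26. Gclc WT 3 and Gclc WT 4 were closest to the Gclc KO mouse of their own number, while Gclc WT 1 and Gclc WT 2 were not. As the numbers did not match throughout, the mice were not taken as pairs, but this does not settle whether some were paired. With a replicate block on the mouse number 1341 genes were higher and 874 lower, and no member changed its call. TMM scaling moved the median of all genes by −0.08, and the total without the 50 most abundant genes moved it by 0.02. Without Gclc WT 3 and Gclc KO 2, chosen after seeing the data, Pnp was 1.84, Aprt 1.34 and Uox −0.55 (adjusted p = 0.0764). TPM give no depth, so low genes such as Ada and Pnp2 have no counting interval.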

Other observations

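In pyrimidine salvage and breakdown, the counterpart of the purine routes, 1 of 11 genes was higher in Gclc KO livers, 3 were lower and 7 were not called (median log2 fold change −0.30). Of all genes tested 12.8% were called higher and 8.61% lower. Upp2, Cda and Tk1 differed more than any of the 8 purine members, while Dpyd differed less than Pnp or Aprt. Upp2, a liver uridine phosphorylase that does for uridine what Pnp does for inosine, was 465, 881, 905 and 829 TPM in Gclc WT mice 1 to 4, against 74.2, 85.0, 61.3 and 29.7 TPM in Gclc KO mice 1 to 4. The lowest Gclc WT mouse was far above the highest Gclc KO mouse, and Upp2 fell 12.6-fold (−3.65 on the log2 scale with an SE of 0.33, limma adjusted p = 0.000338). Pnp and Upp2, both nucleoside phosphorylases, thus went in opposite directions. Tymp, thymidine phosphorylase, was 14.8 ± 3.02 and 11.8 ± 3.46 TPM (SD, n = 4 each) and was not called (limma adjusted p = 0.253), nor was Pnp2. Tk1, the cytosolic thymidine kinase of dividing cells, was 18.7, 26.0, 25.4 and 24.1 TPM in Gclc WT mice 1 to 4, against 6.54, 7.40, 5.59 and 4.25 TPM in Gclc KO mice 1 to 4 (−1.83, SE 0.17, limma adjusted p = 0.000338). Cda, cytidine deaminase, which for cytidine is what Ada is for adenosine, rose from 4.22 ± 1.29 to 18.3 ± 3.91 TPM (SD, n = 4 each, 1.90, limma adjusted p = 0.000542). Dpyd, which starts the breakdown of uracil and thymine, fell from 213 ± 52.6 to 128 ± 12.5 TPM (−0.70, limma adjusted p = 0.0176). Upp1, the other uridine phosphorylase, was 1.45 ± 0.628 and 0.569 ± 0.128 TPM and was not called (limma adjusted p = 0.0716).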
